A study of Mus musculus and Homo sapiens with 8 samples.

Results

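The genes described here carry dietary fat through the absorptive cells of the small intestine: Fabp1, Fabp2, Cd36, Mogat2, Dgat1, Mttp, Apob, Apoa1, Apoa4 and Apoc3. They were picked by symbol from the deposited table of crypt gene expression, and all 10 were among its 13359 distinct genes. The table covers 4 RNA-seq libraries of small intestinal crypts from untreated C57BL/6 mice, 2 months old, each library a pool of RNA from 3 mice. In 2 libraries the genotype is given as APCmin+; Zmynd8IEC-/-, that is, with Zmynd8 labelled as deleted in the intestinal epithelium (the libraries labelled knockout), and in the other 2 it is given as APCmin+ (the controls). Both groups therefore carry the Apc Min allele, a truncating mutation of a Wnt pathway brake that gives mice intestinal adenomas, and no library comes from mice with normal Apc. The labels name neither the Cre driver nor the removed part of Zmynd8. The comparison asked how the RNA of these genes differed with the Zmynd8 genotype. The 4 ChIP-seq samples of the series, from HCT116 human colorectal cancer cells, were not analysed here.

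As background, fat digested in the gut lumen reaches the enterocyte as fatty acids and monoacylglycerol. Fatty acid binding proteins hold these lipids in the cytosol, acyltransferases of the endoplasmic reticulum rebuild them into triglyceride, and the microsomal transfer protein loads the triglyceride onto apolipoprotein B to form a chylomicron. Apolipoproteins A-I, A-IV and C-III travel on the particle into lymph. Enterocytes of the villus make most of this machinery, and in the mouse its fatty acid handling genes are most active in the proximal part of the small intestine.

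Expression was taken to be in FPKM, that is, reads divided by gene length and library total, so levels of different genes can be compared per length. Whole reads recovered from these values, the smallest that work, summed to 43457247 to 47500041 per library on the listed genes. Zmynd8 itself stood at 7.30 and 7.65 FPKM in the knockout-labelled libraries, against 6.94 and 4.73 FPKM in the controls, so its gene-level RNA gave no check of the labels and each direction below rests on them. Although labelled as crypt cells, the libraries of both groups held enterocyte RNA: 10 enterocyte markers outside the 10 genes summed to 9425 and 9927 FPKM in the libraries labelled knockout and to 6208 and 7574 FPKM in the controls. Crypt markers were present beside them, with 5 stem cell markers summing to 128 and 136 FPKM in the libraries labelled knockout, against 192 and 209 FPKM in the controls. Control replicate 1 stood apart in some RNA foreign to the epithelium, though not in all. Its Alb, the liver albumin gene, was at 11.7 FPKM, against 0.0521 and 0.0303 FPKM in the libraries labelled knockout and 0.189 FPKM in control replicate 2. The adipocyte markers Adipoq and Cfd together reached 12.8 FPKM there, 0.360 FPKM in the other control and 3.54 and 1.45 FPKM in the libraries labelled knockout. Ttr, another liver gene, was at 1.96 and 1.26 FPKM in the controls and 1.86 and 0.922 FPKM in the libraries labelled knockout. Erythroid markers summed to 23.8 FPKM in control replicate 1 and 59.9 FPKM in control replicate 2, against 34.2 and 31.3 FPKM in the libraries labelled knockout.

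All 10 genes had higher values in both libraries labelled knockout than in both controls. Of all genes tested, 14.9% showed that pattern and 48.5% the opposite one. Summed over the 10 genes, the level was 16372 and 19996 FPKM in the libraries labelled knockout, against 9915 and 11010 FPKM in the controls, or 3.91% and 4.76% of all FPKM in the libraries labelled knockout and 2.34% and 2.55% in the controls. In bulk RNA of this kind, more enterocytes in a pool and more RNA per enterocyte cannot be told apart. The genes differed widely in size of effect. Fabp1, Apoc3 and Apoa4 were 9.15, 8.57 and 6.78 times higher on the ratio of group means and Cd36 3.13 times, while Mttp was 2.14 times higher and Apoa1, Apob, Dgat1, Mogat2 and Fabp2 lay between 1.30 and 1.69 times.

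None of these differences passed the test over all genes. With limma's moderated test on log2(FPKM + 1) and Benjamini-Hochberg adjustment over 12948 genes, 0 of the 10 had an adjusted p under 0.05, where 0.595% of all genes tested were called higher and 0.131% lower. The adjusted p-values ran from 0.059 for Mttp to 0.228 for Fabp2. At an unadjusted p under 0.05, 9 of the 10 were higher, all but Fabp2, and 0 lower, against 7.49% higher and 19.1% lower among all genes tested. Voom on whole reads recovered from the FPKM values called 1 of the 10, Mttp, where it called 122 of all genes higher and 27 lower. The authors' deposited table gave 9 of the 10 a q-value under 0.05, all but Cd36, where 1.26% of its genes were higher and 0.876% lower at that threshold; how those q-values were computed is not stated in the labels or file headers. The median log2 fold change of the 10 genes was 0.92, beside a median of -0.15 for all genes tested. Median-ratio scaling put the median of the 10 at 1.09 and that of all genes at -0.01, and each of the 10 was then again above both controls in both libraries labelled knockout, a pattern that 28.2% of the tested genes showed after that scaling. Without control replicate 1 the 10 were also above the remaining control in both libraries labelled knockout, and their median log2 fold change was 0.91.

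**Figure D1:**
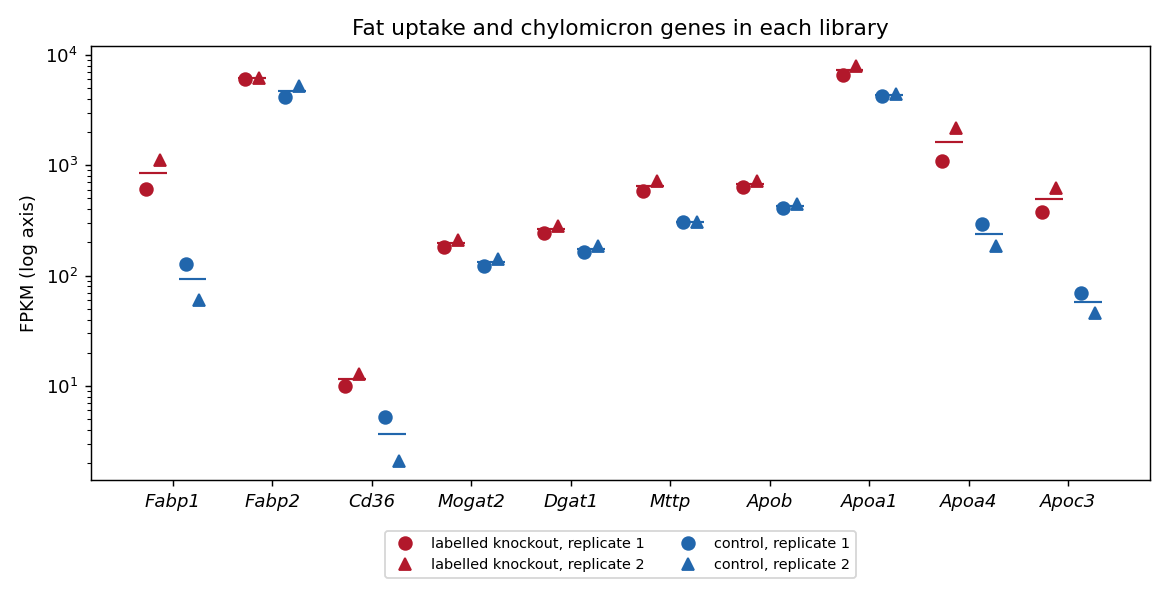
FPKM of each gene in each library on a log axis, with libraries labelled knockout in red on the left and controls in blue on the right of each gene; circles are replicate 1, triangles replicate 2 and bars the mean of each group. The red points lie above the blue ones for all 10 genes, and the 2 libraries of a group lie furthest apart in Fabp1, Cd36, Apoa4 and Apoc3.

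Uptake and binding genes held both the largest and the smallest difference. Fabp1 encodes the liver-type fatty acid binding protein, which the proximal intestine shares with the liver. It stood at 609 and 1107 FPKM in the pair labelled knockout, against 128 and 59.8 FPKM in the controls. The groups were separate by a wide margin, the closest pair of libraries differing 4.77 times and the most distant 18.5 times. This gave a log2 fold change of 3.22 (95% interval 1.69 to 4.74, SE 0.52, adjusted p = 0.095 by limma), rank 4 of all genes tested. Fabp2, the intestinal-type fatty acid binding protein gene of the same family, stood at 6055 and 6183 FPKM in the knockout-labelled libraries and at 4167 and 5242 FPKM in the controls. It was among the 6 most abundant genes in every library, and its groups were separate but close, with a log2 fold change of 0.39 (SE 0.18, 95% interval -0.06 to 0.84, adjusted p = 0.228). After quantile normalization its value was 0.18 and its groups overlapped.

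Both genes lie on the plus strand, Fabp1 (protein coding) at chr6:71199888-71205023 and Fabp2 (protein coding) at chr3:122895072-122899506 in the mouse build mm10. Their promoters are printed because the pair had the most unlike values, given here as the 250 bases before the RefSeq start (GRCm38.p6), 5′ to 3′, at chr6:71199629-71199878 and chr3:122894822-122895071. Capitals mark matches to TATAAA and to a direct repeat of AGGTCA, the kind of element bound by nuclear receptors such as PPAR alpha and HNF4 alpha.
Fabp1: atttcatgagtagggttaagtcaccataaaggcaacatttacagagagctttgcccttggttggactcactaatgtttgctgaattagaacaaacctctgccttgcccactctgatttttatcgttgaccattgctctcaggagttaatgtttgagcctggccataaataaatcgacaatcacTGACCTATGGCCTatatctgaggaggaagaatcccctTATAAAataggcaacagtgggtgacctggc
Fabp2: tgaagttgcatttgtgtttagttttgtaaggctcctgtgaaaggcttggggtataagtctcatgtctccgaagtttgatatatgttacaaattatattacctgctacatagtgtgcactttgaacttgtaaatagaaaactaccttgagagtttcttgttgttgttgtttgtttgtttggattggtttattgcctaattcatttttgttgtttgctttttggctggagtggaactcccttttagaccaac
The repeat was searched as AGGTCANAGGTCA on both strands with up to 2 mismatches. Fabp1 held it on the minus strand with 1 mismatch, starting 67 bases before the annotated start, and a TATAAA starting 30 bases before it. Fabp2 held neither within these limits, and repeats with more mismatches were not searched. Among 32851 promoter windows of that length in the RefSeq table, 3.24% held the repeat and 12.4% held TATAAA on either strand. Of the 7 genes with a promoter in the table, Cd36 also held the repeat, with 2 mismatches, and Apob a TATAAA; the window of Cd36 belongs to a RefSeq start 53063 bases from the start of the gene in the expression table. The sequence bound by GATA factors, searched as AGATAA, was in 0 of the 7 windows and in 9.99% of all windows. These are matches of letters, not measured binding.

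Cd36 (chr5:17781690-17888959, minus strand) encodes a membrane protein that binds long-chain fatty acids and is also made by capillary endothelium, macrophages and adipocytes. It was the least abundant of the 10, at 9.99 and 12.96 FPKM in the pair labelled knockout and 5.23 and 2.10 FPKM in the controls. The controls differed from each other 2.48 times, more than for any other of the 10 genes, and both lay below the lower library labelled knockout. The log2 fold change was 1.49 (SE 0.39, adjusted p = 0.135). Without control replicate 1 it was 2.00 (adjusted p = 0.048, with 1 control left), and without control replicate 2 it was 0.99 (adjusted p = 0.059). Markers of other cell types that make it overlapped between the groups: 4 endothelial markers summed to 17.4 and 21.5 FPKM in the libraries labelled knockout and 21.3 and 15.6 FPKM in the controls, and 4 macrophage markers to 47.5 and 46.7 FPKM in the libraries labelled knockout and 46.6 and 50.4 FPKM in the controls. Of 5 adipocyte markers Plin1, Retn and Lep were not in the table, and Adipoq and Cfd summed to 3.54 and 1.45 FPKM in the libraries labelled knockout and 12.8 and 0.360 FPKM in the controls.

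The 2 acyltransferase genes of triglyceride rebuilding had nearly the same fold change. Mogat2 (chr7:99219084-99238611, minus strand) encodes the enzyme that joins a fatty acid to monoacylglycerol. It stood at 181 and 210 FPKM in the knockout-labelled libraries, against 122 and 142 FPKM in the controls (log2 fold change 0.56, SE 0.14, adjusted p = 0.112). Dgat1 (chr15:76502015-76512021, minus strand), whose enzyme adds the last fatty acid to make triglyceride, stood at 243 and 282 FPKM in the pair labelled knockout, against 165 and 186 FPKM in the controls (log2 fold change 0.58, SE 0.13, adjusted p = 0.104). The groups did not overlap for either gene, and the level of Mogat2 relative to Dgat1 was 0.746 and 0.744 in the libraries labelled knockout and 0.740 and 0.767 in the controls.

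In the assembly step, Mttp differed more than Apob. Mttp (chr3:138089855-138143461, minus strand) encodes the large subunit of the microsomal triglyceride transfer protein. It stood at 587 and 721 FPKM in the knockout-labelled libraries, against 306 and 303 FPKM in the controls, which were within 1.01 times of each other. Its log2 fold change of 1.09 (SE 0.15, 95% interval 0.72 to 1.46) had the smallest adjusted p of the 10, 0.059. It passed 0.05 with voom (adjusted p = 0.041) and without control replicate 2 (adjusted p = 0.049). Apob (chr12:7977634-8016839, plus strand), whose product is the structural protein of the chylomicron, stood at 632 and 720 FPKM in the pair labelled knockout and at 412 and 446 FPKM in the controls (log2 fold change 0.65, SE 0.13, adjusted p = 0.094). The level of Mttp relative to Apob was 0.929 and 1.001 in the libraries labelled knockout, against 0.743 and 0.681 in the controls. With 2 libraries against 2, an exact two-sided permutation test cannot give a p below 0.333, so this ratio and those below are descriptions.

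Of the exchangeable apolipoproteins, Apoa4 and Apoc3 stood far from Apoa1 in size of effect. Apoa1 encodes apolipoprotein A-I, the main protein of high-density lipoprotein as well as a chylomicron component. It was at 6580 and 7982 FPKM in the knockout-labelled libraries and 4245 and 4397 FPKM in the controls (log2 fold change 0.75, SE 0.17, adjusted p = 0.101), the most abundant of the 10 in the libraries labelled knockout. Apoa4, which encodes the apolipoprotein that intestine secretes in response to fat, was at 1097 and 2162 FPKM in the pair labelled knockout and 294 and 186 FPKM in the controls (log2 fold change 2.71, SE 0.43, adjusted p = 0.090). Apoc3, encoding an inhibitor of lipoprotein lipase and of remnant clearance, was at 378 and 616 FPKM in the knockout-labelled libraries and 69.6 and 46.3 FPKM in the controls (log2 fold change 3.06, SE 0.33, 95% interval 2.15 to 3.98, adjusted p = 0.059). The groups were separate for all 3 genes, and the smallest ratio of a library labelled knockout to a control was 3.73 for Apoa4 and 5.42 for Apoc3, against 1.496 for Apoa1. The level of Apoa4 relative to Apoa1 was 0.167 and 0.271 in the libraries labelled knockout and 0.0693 and 0.0424 in the controls, and that of Apoc3 relative to Apoa4 was 0.344 and 0.285 in the libraries labelled knockout and 0.237 and 0.248 in the controls. The liver makes these apolipoproteins too; of 4 liver markers Serpina1c and Ahsg were not in the table, and Alb and Ttr summed to 1.92 and 0.952 FPKM in the libraries labelled knockout, against 13.7 and 1.45 FPKM in the controls.

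These 3 genes are neighbours on chromosome 9 and span 14829 bases in all. Apoa1 (chr9:46228630-46230469, plus strand) is followed by Apoc3 (chr9:46233050-46235636, minus strand) and Apoa4 (chr9:46240844-46243458, plus strand). Among the other 9 listed genes within 300 kb, 3 had both values of the libraries labelled knockout above both controls and 5 had both below (14.9% and 48.5% over all genes tested), and 0 were called. The median log2 fold change of the 9 was -0.28. The nearest protein-coding neighbours in the table were Zpr1, at 6.73 and 5.75 FPKM in the pair labelled knockout and 9.40 and 8.56 FPKM in the controls (-0.47), and Sik3, at 7.70 and 8.07 FPKM in the pair labelled knockout and 6.68 and 6.56 FPKM in the controls (0.22). The highest of the 9, at 1.67, was an unnamed transcript on the strand opposite Apoa4. The 3 apolipoprotein genes thus had log2 fold changes of 0.75, 3.06 and 2.71, while the protein-coding genes on both sides lay between -0.47 and 0.27.

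**Figure D2:**
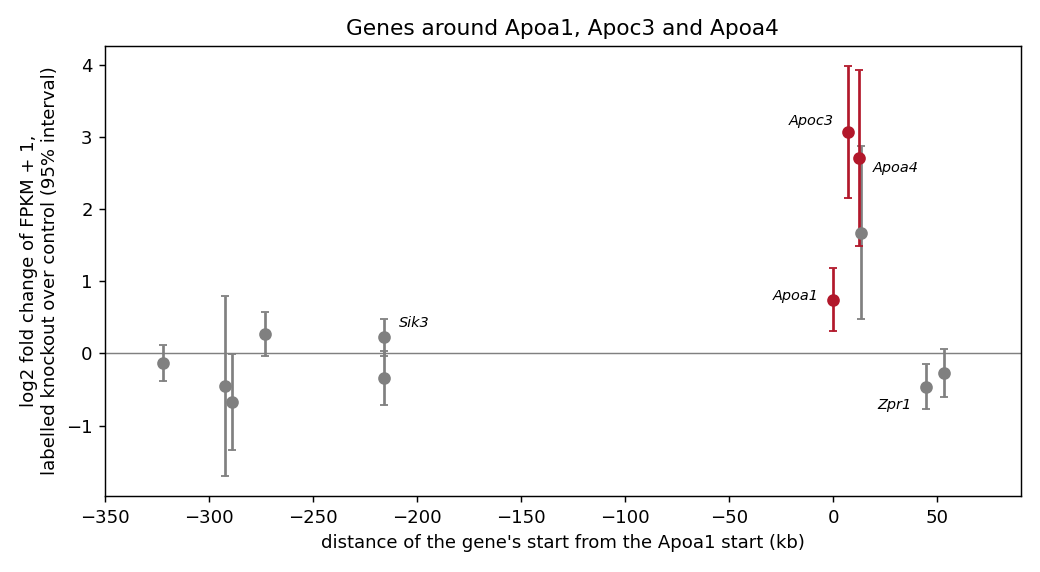
Log2 fold change with 95% interval (libraries labelled knockout over controls) of the genes around the apolipoprotein cluster, by distance of each gene's start from the Apoa1 start in kb; the 3 cluster genes are red, other genes grey. Apoc3 and Apoa4 stand at 3.06 and 2.71, and the named grey genes scatter around 0.

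Log2 fold changes therefore spread over 2.83 units within the 10 genes. Fabp1, Apoc3, Apoa4 and Cd36 lay at 1.49 or higher and the other 6 at 1.09 or lower. The place of Cd36 above Mttp did not hold at a pseudocount of 5 (0.95 for Cd36 and 1.08 for Mttp) or without control replicate 2 (0.99 and 1.08). The same 4 genes, a grouping made after their values were seen, also differed most between libraries of a group. In the libraries labelled knockout, Fabp1, Apoa4 and Apoc3 were 1.82, 1.97 and 1.63 times higher in replicate 2 than in replicate 1, and in the controls 2.13, 1.58 and 1.504 times higher in replicate 1 than in replicate 2. For Fabp2, Mogat2, Dgat1, Mttp, Apob and Apoa1 the 2 libraries of a group were within 1.26 times of each other. The level of Fabp1 relative to Fabp2 was 0.101 and 0.179 in the libraries labelled knockout, against 0.0306 and 0.0114 in the controls. All 10 genes were highest in replicate 2 of the libraries labelled knockout, as were 15.04% of all genes tested. Counting error is small beside these differences: the fewest reads recovered behind a value were 416, for Cd36 in control replicate 2, a counting error of 4.90%.

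**Figure D3:**
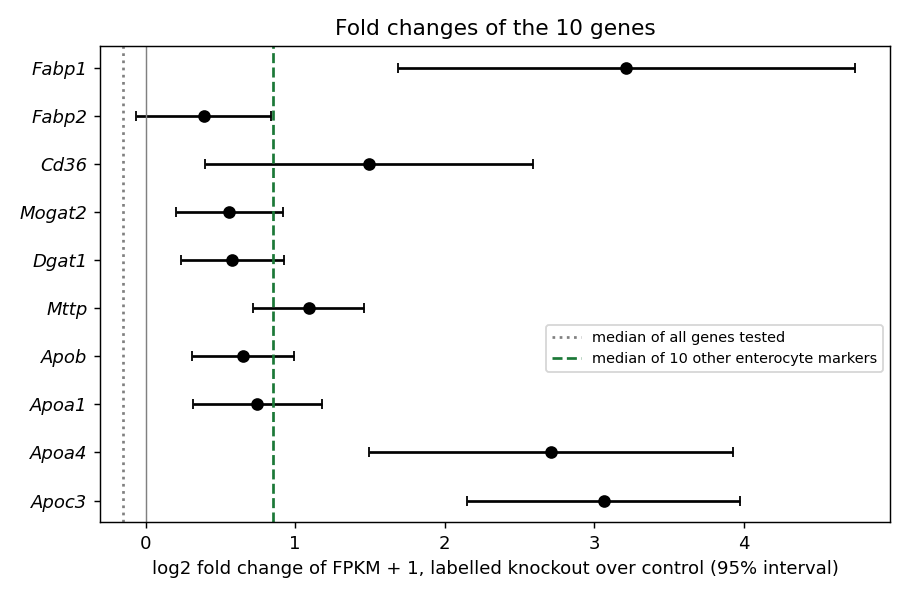
Log2 fold change of FPKM + 1 (libraries labelled knockout over controls) with its 95% interval for each of the 10 genes; the dotted line is the median of all genes tested, -0.15, and the dashed line the median of 10 other enterocyte markers, 0.86. Only the interval of Fabp2 reaches below 0, and 5 of the 10 points lie above the dashed line.

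Other enterocyte markers were higher in the same libraries. Of 10 such markers, 9 were higher in all 4 pairings (14.9% over all genes), and 2 were called: Slc2a2, the basolateral glucose transporter gene (log2 fold change 2.29, adjusted p = 0.041), and Treh, the trehalase gene (1.78, adjusted p = 0.042), calls lost in 6 and 9 of 14 alternatives. The median of the 10 was 0.86, with values from 0.12 to 2.29. Measured from that median, Fabp1, Apoc3 and Apoa4 lay 2.36, 2.21 and 1.86 units higher, Cd36 and Mttp 0.64 and 0.24 units higher, and Fabp2 at -0.47, the lowest. Lct, the lactase gene, stood at 174 and 293 FPKM in the knockout-labelled libraries and 84.7 and 39.1 FPKM in the controls, thus with the same order of libraries as Fabp1. Proliferation markers had lower values, 8 of 8 of them in all 4 pairings (48.5% over all genes), and 0 called by limma; they summed to 155 and 154 FPKM in the libraries labelled knockout and 227 and 209 FPKM in the controls. Of 6 Paneth cell markers, 5 were lower in all 4 pairings and 2 were called (0.131% over all genes): Mmp7, the matrilysin gene, at -1.80 (adjusted p = 0.042 by limma), and Itln1, the intelectin gene, at -1.47 (adjusted p = 0.045), calls lost in 6 and 9 of 14 alternatives. The 6 summed to 4454 and 6336 FPKM in the libraries labelled knockout, against 7297 and 9552 FPKM in the controls. Of the markers of other secretory cells, 4 of 6 for goblet cells and 3 of 3 tested for tuft cells were lower in all 4 pairings, 2 of 6 for enteroendocrine cells were higher, and 0 were called.

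Markers of gut region also differed between libraries. Among 6 proximal markers, Gata4 stood at 16.5 and 26.0 FPKM in the pair labelled knockout and 10.6 and 5.86 FPKM in the controls, and Cyp2b10 at 44.2 and 81.1 FPKM in the pair labelled knockout and 6.45 and 3.61 FPKM in the controls. Adh6a was at 173 and 283 FPKM in the knockout-labelled libraries, against 49.8 and 44.3 FPKM in the controls. The other 3 markers did not follow. Slc40a1 was lower, at 10.8 and 4.31 FPKM in the pair labelled knockout and 31.8 and 17.6 FPKM in the controls. Onecut2 was at 0.201 and 0.227 FPKM in the pair labelled knockout and 4.18 and 0.246 FPKM in the controls. It reached 1 FPKM only in control replicate 1 and was not tested. Cybrd1 overlapped between the groups. All 6 together summed to 246 and 396 FPKM in the libraries labelled knockout and 104 and 72.6 FPKM in the controls. Ileal markers, all 5 of them in the table, summed to 2998 and 507 FPKM in the libraries labelled knockout and 2076 and 8806 FPKM in the controls. The library with the highest Fabp1, replicate 2 of those labelled knockout, thus had the highest proximal and the lowest ileal sum, and control replicate 2, with the lowest Fabp1, had the reverse. Fabp1, Cd36, Mttp, Apoa4 and Apoc3 followed the order replicate 2 and replicate 1 of the libraries labelled knockout, then control replicate 1 and control replicate 2, from highest to lowest, an order that 5.65% of all genes tested had. For Mttp the controls were nearly tied, differing only 1.01 times. The part of gut region, and of the shares of enterocytes and of secretory and dividing cells, in the differences of the 10 genes was not tested.

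**Figure D4:**
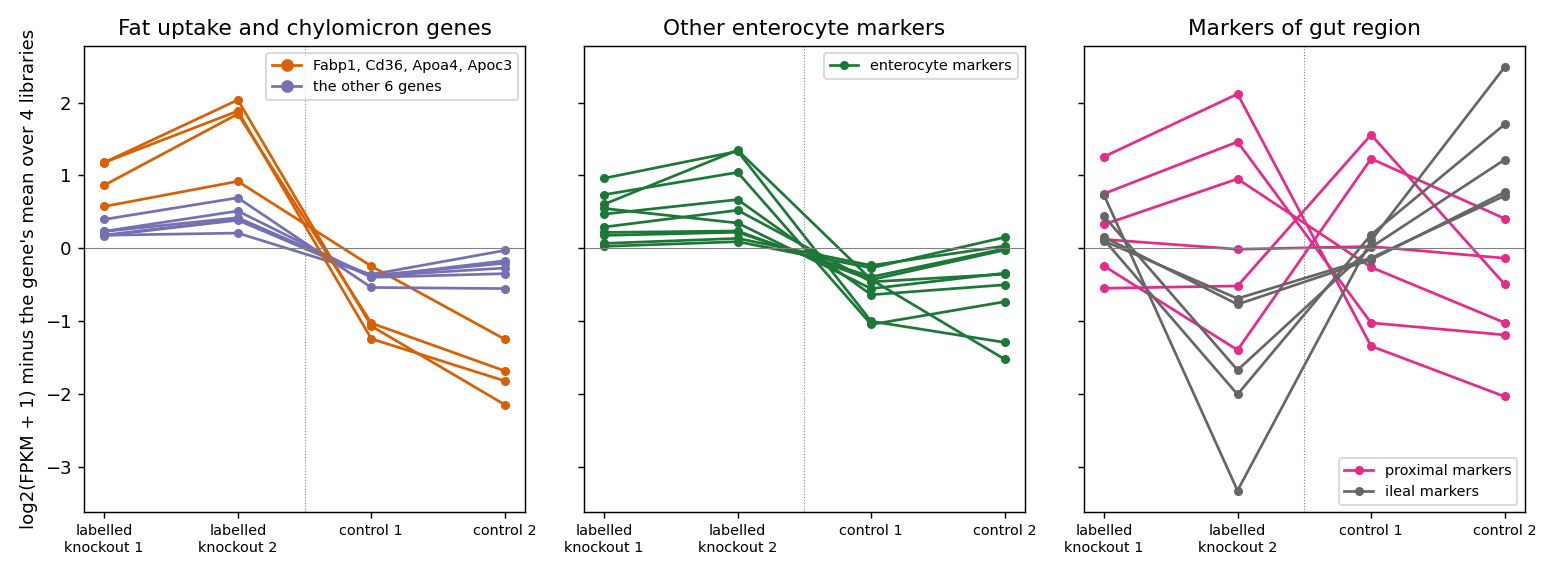
Log2(FPKM + 1) of each gene minus its mean over the 4 libraries, with lines joining the values of a gene: the 10 genes on the left (Fabp1, Cd36, Apoa4 and Apoc3 in orange, the other 6 in purple), 10 other enterocyte markers in the middle, and 6 proximal (pink) and 5 ileal (grey) markers on the right. The orange lines are highest in replicate 2 of the libraries labelled knockout and lowest in control replicate 2, where the ileal markers are at their lowest and highest sums.

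Beyond the 10 genes, 6 lists of other fat absorption genes held 59 tested genes, of which 28 were higher and 13 lower in all 4 pairings (14.9% and 48.5% over all genes tested) and 1 was called higher and 0 lower (0.595% and 0.131%). Chylomicron lipidation and export had the most members with higher values, with 13 of 17 positive, where 3669 of the 12948 genes tested were, and 11 higher in all 4 pairings, beside the same 14.9%. Its median log2 fold change was 0.47. After median-ratio scaling 14 of the 17 were higher in all 4 pairings, beside 28.2% of all genes tested, and the median was 0.64. Sar1b, whose GTPase drives the transport vesicles that carry chylomicrons and whose loss causes chylomicron retention disease in humans, stood at 149.9 and 153 FPKM in the knockout-labelled libraries and 87.0 and 95.4 FPKM in the controls (0.73, adjusted p = 0.067). The coat genes Sec24d, Sec24a and Sec23a gave 0.94, 0.47 and 0.48, and Pla2g12b, a lipoprotein secretion gene, gave 0.58, with adjusted p from 0.090 to 0.094. Uptake, activation and binding genes were split, with 5 positive and 6 negative and a median of -0.12, or 0.01 after median-ratio scaling. In that list Acsl5, an enterocyte acyl-CoA synthetase gene, stood at 490.5 and 566 FPKM in the pair labelled knockout and 267 and 313 FPKM in the controls (0.86, adjusted p = 0.076), and the transporter-family genes Slc27a2 and Slc27a4 gave 1.04 and 0.57. Fabp5, another binding protein gene, was at 3.81 and 3.45 FPKM in the knockout-labelled libraries and 6.36 and 5.55 FPKM in the controls (-0.59, adjusted p = 0.098), and Got2, a mitochondrial aminotransferase gene, gave -0.41.

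Glycerolipid assembly genes were also divided, with 5 positive and 5 negative around a median of 0.11 (median-ratio scaling gave 7 and 3). Dgat2, the second triglyceride synthase gene, stood at 128 and 173 FPKM in the pair labelled knockout and 86.6 and 63.0 FPKM in the controls (0.999, adjusted p = 0.106). The acyltransferase genes Agpat3, Agpat9 and Gpat4 gave 1.07, 0.32 and -0.66, and the phosphatidate phosphatase gene Lpin3 gave 0.41; none passed the threshold. The lipid droplet and lipolysis list had a median of -0.05, with 4 positive and 5 negative genes (median-ratio scaling gave 8 and 1). Cidec, a lipid droplet fusion gene, stood at 38.0 and 52.7 FPKM in the knockout-labelled libraries and 16.4 and 14.95 FPKM in the controls (1.46, adjusted p = 0.054), passing with voom (adjusted p = 0.041). Lipe, the hormone-sensitive lipase gene, gave 0.64 and Plin3, a droplet coat gene, 0.40. Fitm2 gave -0.19, with both libraries labelled knockout below both controls, and Lipa gave 0.17 with overlapping groups. Of 8 other apolipoprotein and transfer genes 3 were in the table, with a median of 0.05: Apoc2, the lipoprotein lipase activator gene, at 27.1 and 52.7 FPKM in the pair labelled knockout and 7.70 and 6.18 FPKM in the controls (2.30, adjusted p = 0.092), Apoe at -0.09 (0.09 after median-ratio scaling) and Pltp at 0.05.

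Among 9 transcription factors, Ppara, which encodes a nuclear receptor for fatty acids, was the 1 gene called. It rose to 9.82 and 10.5 FPKM in the libraries labelled knockout, against 4.67 and 5.05 FPKM in the controls (log2 fold change 0.93, adjusted p = 0.047). The call lay close to the threshold and was lost in 11 of 14 alternatives, where the value stayed between 0.62 and 1.09. Creb3l3, whose factor drives apolipoprotein genes in liver and intestine, stood at 174 and 236 FPKM in the knockout-labelled libraries and 96.6 and 82.3 FPKM in the controls (1.17, adjusted p = 0.074). Hnf4g and Gata4 gave 0.63 and 1.28, and Hnf4a, at 199 and 176 FPKM in the pair labelled knockout and 219 and 268 FPKM in the controls, gave -0.37 (adjusted p = 0.193). The list's median was 0.01, with 5 positive and 4 negative (6 and 3 after median-ratio scaling).

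**Figure D5:**
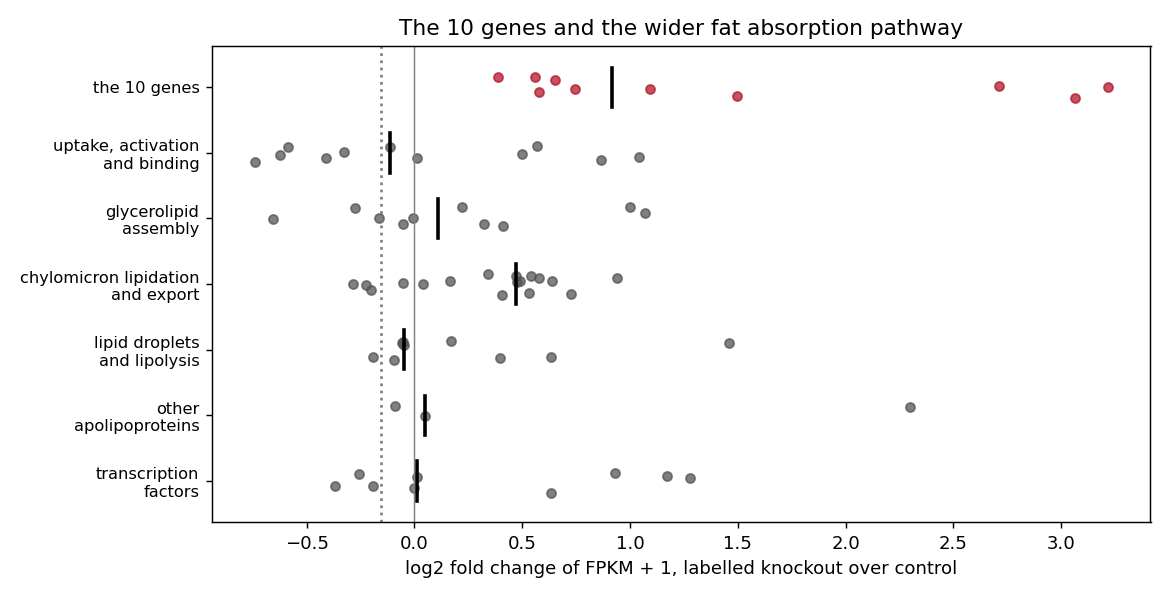
Log2 fold change of FPKM + 1 (libraries labelled knockout over controls) of each tested gene, for the 10 genes (red) and 6 lists of other fat absorption genes (grey); thick bars are list medians, the dotted line is the median of all genes tested, -0.15, and vertical scatter has no meaning. The 10 genes lie to the right of 0 with a median of 0.92, and of the grey lists chylomicron lipidation and export has the highest median, 0.47.

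The genes whose centred log2 profile over the 4 libraries lay nearest to the median profile of the 10, by Euclidean distance among all other genes tested and leaving out predicted ones, were Prr5l, Tnik, Usp18, Sgpl1 and Gimd1. Prr5l was at 1.08 and 1.57 FPKM in the pair labelled knockout and 0.316 and 0.246 FPKM in the controls, so its place depends on the pseudocount of 1: its log2 fold change was 0.85, against 1.89 at a pseudocount of 0.1, 0.26 at 5 and 2.22 with voom. Sgpl1, the sphingosine phosphate lyase gene, stood at 128 and 159 FPKM in the knockout-labelled libraries and 75.1 and 74.9 FPKM in the controls, and Gimd1 at 28.0 and 33.3 FPKM in the knockout-labelled libraries and 15.8 and 15.3 FPKM in the controls. Their log2 fold changes of 0.92 and 0.93 lie near the median of 0.92 of the 10 genes because they were picked for that likeness. Prr5l passed the filter of 1 FPKM in 2 libraries only through the libraries labelled knockout. With 4 libraries many genes share such a profile, and the likeness is a description.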

How the data were processed

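RNA-seq of crypts was compared between 2 libraries labelled knockout and 2 controls; the sources do not say how the pools of a group differ, and p-values reflect only their spread. Per the labels' protocols the kit was NEBNext Ultra, and the submitters' processing notes name HISAT2 and mm10; no counting tool, annotation or strand setting is stated there. The authors deposited 1 normalized value per gene and library, read here as FPKM although no unit is given per the file headers, because 13357 of 13359 genes gave whole reads within 0.002 for 1 gene length (the smallest that works, so reads may be a whole multiple). The authors' log2 fold changes, p-values and q-values, per the file headers, come from a test that neither headers nor labels state. The table's 13527 entries held 168 exact repeats, each used once; per-sample columns left unused numbered 0.

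The fit used limma (version 3.58.1, under R 4.3.3) on log2(FPKM + 1), which understates low genes, for genes reaching 1 FPKM in 2 or more libraries, which all 10 genes did. It had genotype as its only term, a mean-variance trend, robust moderation and 2 residual degrees of freedom, and was checked on simulated data. P-values were adjusted by Benjamini-Hochberg at 0.05. The members and lists were chosen with earlier results of these data known. Named are the 10, Zmynd8, up to 5 genes of smallest p per list, genes near the apolipoprotein cluster and the 5 nearest profiles. Markers are named at most 3 per type. More are named for adipocytes and liver, to account for those not in the table, and for the proximal gut, whose markers went both ways. Alternatives covered pseudocount, filter, scaling, trend, moderation, voom on recovered reads, a replicate block and each library left out. Mogat2, Mttp and Apoa4 overlap a listed transcript on the opposite strand, so their values are uncertain by its reads.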

Additional observations from a re-analysis of the deposited data

How the results depend on the processing

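All 10 genes stayed positive in all 14 alternatives, and their median log2 fold change lay between 0.77 and 1.09. The number of the 10 called was 0 except for 1 with voom (Mttp) and from 0 to 1 with a library left out (Cd36 without control replicate 1, Mttp without control replicate 2), where the group with 1 library is assumed to vary like the other. The number of all genes called higher and lower, 77 and 17 in the fit reported, was 1 and 0 without a filter on low values, 2 and 0 at a mean of 5 FPKM, 41 and 9 without the trend, 1 and 0 without robust moderation, 122 and 27 with voom and 0 and 0 with a replicate block. They were 55 and 9 at a pseudocount of 5, 60 and 4 with median-ratio scaling and 61 and 5 with quantile normalization. With a library left out, higher calls ran from 0 to 230 and lower calls from 0 to 386: 0 and 0 without either library labelled knockout, 65 and 15 without control replicate 1 and 230 and 386 without control replicate 2; the cause was not tested. The replicate block left the fold changes as they were and called none of the 10. The labels' numbers share no stated animal or day, and deviations of same-numbered libraries correlated at 0.0452. Directions reversed for Apoe after median-ratio scaling (0.0872) and with a library left out (from -0.178 to 0.0023), and for Pltp with a library left out (from -0.0836 to 0.179), neither of them called.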

Other observations

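Transcripts on the strand opposite 3 of the 10 genes had higher values in the libraries labelled knockout as well. The transcript opposite Apoa4 stood at 8.55 and 19.0 FPKM in the pair labelled knockout and 3.93 and 2.82 FPKM in the controls, and the one opposite Mttp at 1.26 and 2.42 FPKM in the pair labelled knockout and 0.289 and 0.559 FPKM in the controls. The one opposite Mogat2 stood at 2.58 and 2.36 FPKM in the knockout-labelled libraries, against 1.30 and 1.54 FPKM in the controls. With the use of strand not stated, their reads and those of the genes opposite cannot be told apart. In RefSeq, Trmt10a also overlaps Mttp, and 1 RefSeq gene with a provisional (Rik) symbol overlaps Fabp2.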
